A study of Danio rerio with 67 samples.

Results

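The Hox genes are described here in single olig2:eGFP cells of the adult zebrafish spinal cord. Every gene of the counted table whose Ensembl symbol begins with hoxa, hoxb, hoxc or hoxd and a digit was taken, which gave 47 of 32266 genes. All 47 are accounted for below. A member counted as detected in a cell when it had at least 5 reads there, and by that measure 25 of the 47 were detected in at least 1 cell. Another 2 members had stray reads and 20 had none. The Ensembl table spells many zebrafish genes like the human gene, so the zebrafish names with their a or b copy were taken from RefSeq by symbol and chromosome.

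Each sample was 1 sorted cell of an adult fish of the genotype Tg(olig2:eGFP), in which the olig2 promoter drives a green fluorescent protein. In the lesion group the cord had been cut 5 mm caudal to the junction with the brainstem and was taken 7 days later. In the sham group the operation left the cord intact, and the labels give no other difference in treatment. Pieces of about 0.5 mm came from just rostral to the lesion, or from the same level in sham fish, and 9 cords were pooled in each group. Living cells were sorted by their fluorescence, and the labels call them oligodendrocyte progenitors. There were 35 sham and 32 lesion cells. Because each group is 1 pool, cells are not replicates, no test between groups was possible, and no p-value is given. Group, pool of fish and plate columns (1 to 6 for sham, 7 to 12 for lesion) cannot be told apart.

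Cells were further divided by plp1b, which encodes a proteolipid protein of myelin. At or above 10000 CPM (reads of a gene per 1e+06 gene reads) a cell is called plp1b-high, and under it plp1b-low. The 29 sham and 17 lesion plp1b-high cells had at least 19557 CPM of plp1b. The 6 sham and 15 lesion plp1b-low cells had at most 614 CPM, so the division fell in a wide gap. Cells held 245408 to 771417 gene reads. The median was 568761 in sham plp1b-high, 436847 in lesion plp1b-high, 435541 in sham plp1b-low and 415648 in lesion plp1b-low cells.

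Hox genes encode homeodomain transcription factors that lie in clusters and are numbered by paralogue group, from 1 at the anterior end of a cluster to 13 at its posterior end. In vertebrate embryos the order of the genes along the cluster matches the order of their anterior limits along the neural tube, so that low numbers mark hindbrain and high numbers mark trunk and tail. In the cord of mouse and chick, members of groups 6, 9 and 10 take part in setting brachial, thoracic and lumbar motor neuron identity. Zebrafish carry 7 clusters, since the clusters were doubled in the teleost ancestor and copies were then lost.

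The detected genes ended at paralogue group 10. No gene of groups 11 to 13 was detected in any of the 67 cells. These 13 genes together had 3 reads among 32400291, namely 2 of hoxd12a and 1 of hoxd13a, both genes that act in the tail, fins and limbs of vertebrates. For a group with no detected cell in 67, the exact 95% interval allows up to 5.36% of cells with detection. Intervals are exact Clopper-Pearson for shares and exact Poisson for sums. They cover counting error only, not the spread between cells or pools. Reads were counted without molecular identifiers and several can stem from 1 RNA molecule, so the Poisson intervals can be too narrow even for counting error.

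Within hoxba, hoxca, hoxaa and hoxab, no gene above the highest detected member had a read. In hoxaa that member, hoxa9a, was detected in 1 cell. In hoxba, on chromosome 3 (23523685 to 23640594, GRCz10), each of the 9 genes from hoxb2a to hoxb10a was detected, while the end genes hoxb1a and hoxb13a had no read. In hoxca, on chromosome 23 (35954141 to 36092185), the 6 genes from hoxc3a to hoxc9a were detected, and hoxc1a below them and hoxc10a, hoxc11a, hoxc12a and hoxc13a above them had no read. In hoxaa, on chromosome 19, hoxa3a, hoxa5a and hoxa9a were detected and hoxa1a, hoxa11a and hoxa13a had no read. In hoxab, on chromosome 16, hoxa2b and hoxa9b were detected and hoxa10b, hoxa11b and hoxa13b had no read. All 4 genes of hoxbb, on chromosome 12, were detected: hoxb1b, hoxb5b, hoxb6b and hoxb8b. In hoxda, on chromosome 9, hoxd3a was detected, hoxd4a, hoxd9a, hoxd10a and hoxd11a had no read, and hoxd12a and hoxd13a had the stray reads. The 3 counted genes of hoxcb, on chromosome 11, hoxc6b, hoxc11b and hoxc12b, had no read.

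The clusters contributed unequally. The hoxba genes took 61.3% of all Hox reads and hoxca took 20.2%, followed by hoxab with 10.3%, hoxbb with 3.81%, hoxda with 2.4% and hoxaa with 1.94%. By group, 8 took 32.1%, 7 took 22.5% and 9 took 19.9% of the Hox reads, while groups 1 and 2 took 0.508% and 0.746%. Of group 10, hoxb10a was detected in 8 cells and hoxa10b, hoxc10a and hoxd10a had no read in any cell.

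**Figure D1:**
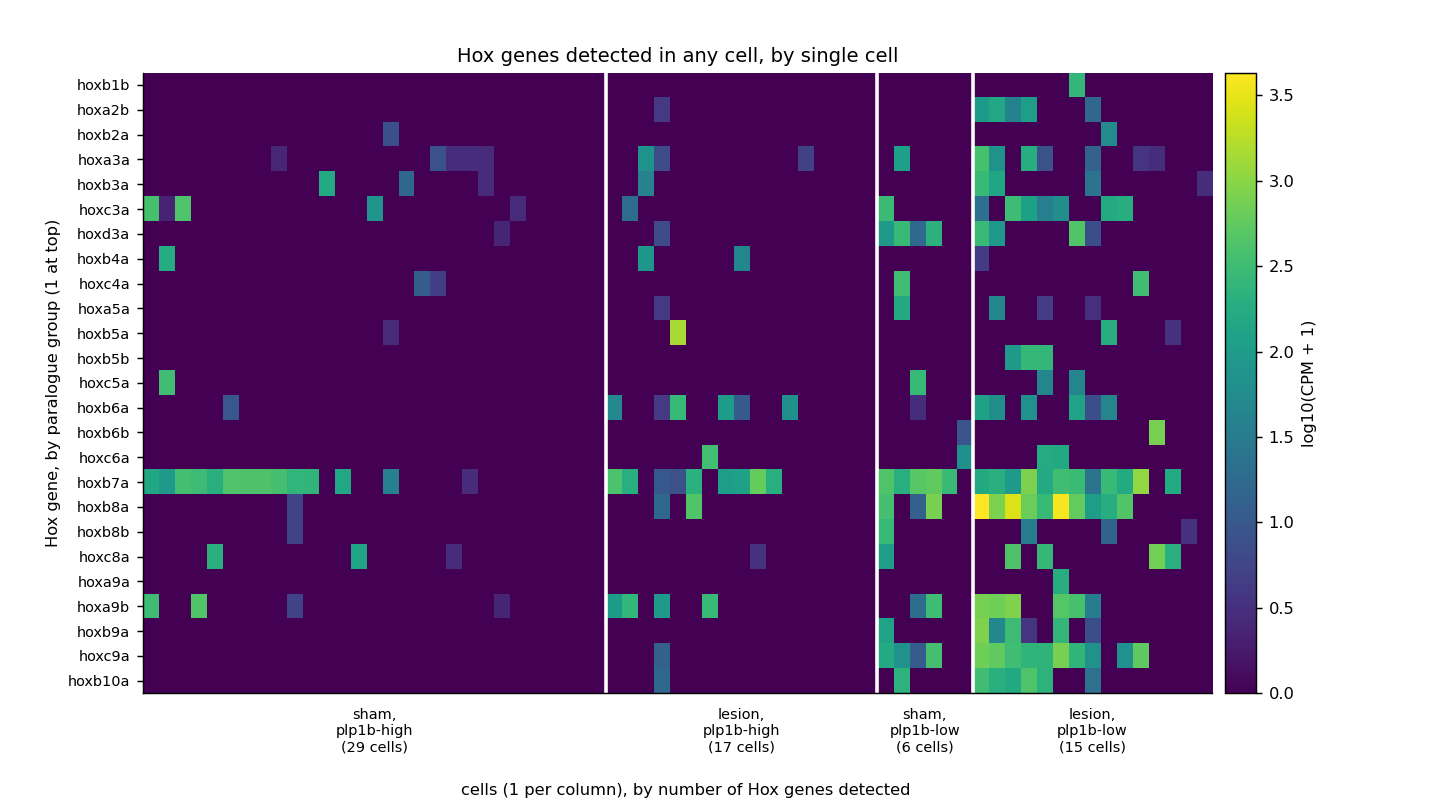
Each row is 1 of the 25 Hox genes detected in any cell, ordered by paralogue group, and each column is 1 of 67 cells in 4 classes; colour gives log10(CPM + 1). The hoxb7a row is filled in all classes, while hoxb8a, hoxc9a and hoxb10a are filled mainly in plp1b-low cells.

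Hox genes were more numerous in plp1b-low than in plp1b-high cells of both groups. Sham plp1b-high cells had from 0 to 3 detected Hox genes with a median of 1, and lesion plp1b-high cells 0 to 3 with a median of 2. Sham plp1b-low cells had 1 to 8 with a median of 5.5, and lesion plp1b-low cells 0 to 12 with a median of 8. The ranges overlapped, but 5 or more Hox genes were found in 4 of 6 sham and 9 of 15 lesion plp1b-low cells and in no plp1b-high cell. Of the 6 Hox genes of sham cell 32, hoxa9b, hoxb8a, hoxc9a and hoxd3a had only 9, 6, 5 and 8 reads. At least 1 Hox gene was detected in 18 of 29 sham plp1b-high cells (62.1%, interval 42.3 to 79.3) and 12 of 17 lesion plp1b-high cells (70.6%, 44.0 to 89.7). It was detected in 6 of 6 sham plp1b-low cells (100%, 54.1 to 100) and 13 of 15 lesion plp1b-low cells (86.7%, 59.5 to 98.3).

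The plp1b-low cells had no more reads than the plp1b-high cells of their group, but more genes with a read. The median number of genes with a read was 2154 in sham and 2875 in lesion plp1b-high cells, against 2986 in sham and 3464 in lesion plp1b-low cells. After thinning every cell to 301650 reads, the medians were 1 and 2 Hox genes in sham and lesion plp1b-high cells, and 5 and 6.5 in sham and lesion plp1b-low cells. Thinning left out 3 sham plp1b-high, 1 sham plp1b-low and 3 lesion plp1b-low cells. The shares of cells with a Hox gene were then 57.7%, 70.6%, 100% and 83.3% in the same order. The part of the larger number of genes per cell in the Hox counts was not tested.

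**Figure D2:**
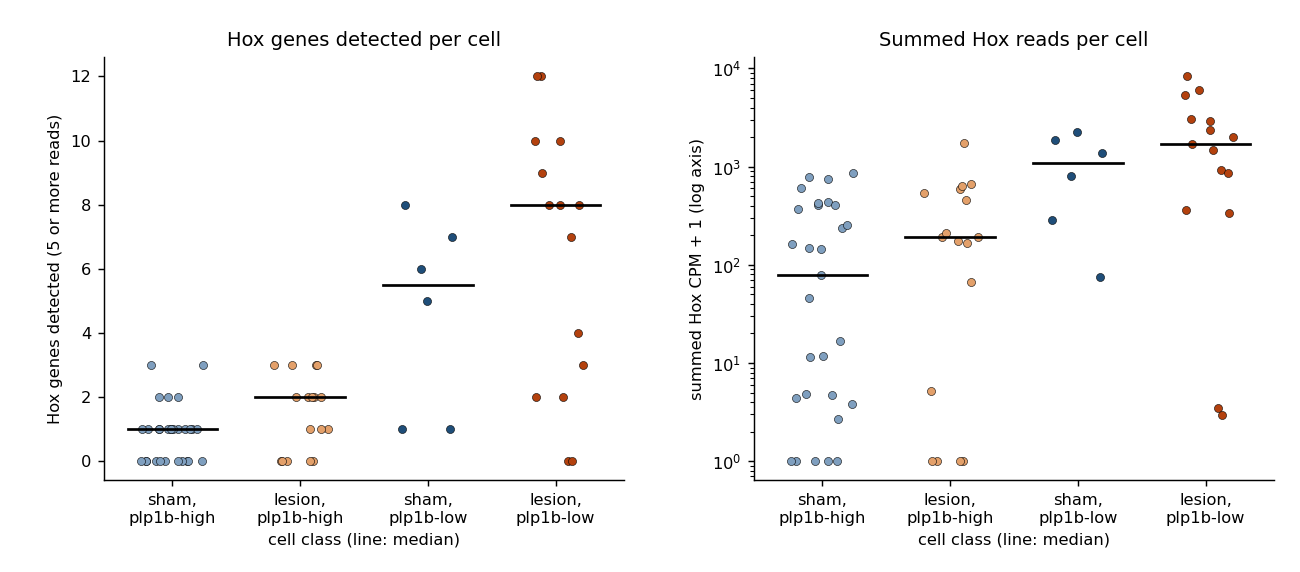
Left, Hox genes detected per cell; right, summed Hox CPM + 1 per cell on a log axis, with 1 point per cell and a line at the median of each class. No plp1b-high cell has more than 3 Hox genes, whereas plp1b-low medians are 5.5 in sham and 8 in lesion cells.

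The set of genes also differed from cell to cell. Among the 18 sham plp1b-high cells with a Hox gene, 13 had a single Hox gene, and in 8 of them it was hoxb7a. Among the 13 lesion plp1b-low cells with a Hox gene no cell had a single Hox gene, and the 13 cells carried 13 distinct sets. The 6 sham plp1b-low cells likewise carried 6 distinct sets. Genes of at least 3 clusters were detected together in 4 of 6 sham and 9 of 15 lesion plp1b-low cells, against 1 of 29 sham and 1 of 17 lesion plp1b-high cells. Since a gene with few RNA copies is often missed in 1 cell, absence of a gene from a cell is not absence of its expression.

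Highest paralogue numbers placed most cells at groups 7 to 10. In sham plp1b-high cells the highest detected group was 7 in 10 of 18 cells with a Hox gene, 8 in 2, 9 in 2, 4 in 1 and 3 in 3. In lesion plp1b-high cells it was 7 in 4 of 12, 9 in 3, 6 in 2, and 4, 8 and 10 in 1 each. In plp1b-low cells it was 9 or 10 in 4 of 6 sham and 10 of 15 lesion cells. In sham cell 32 this rests on 9 reads of hoxa9b and 5 of hoxc9a. The median highest group was 7 in both plp1b-high classes and 9 in both plp1b-low classes. Lower groups were detected in the same cells: the median lowest group was 3 in sham and 2 in lesion plp1b-low cells, so a cell typically held members from both ends of the detected range. A cell with more genes detected reaches a higher maximum and a lower minimum by that alone.

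**Figure D3:**
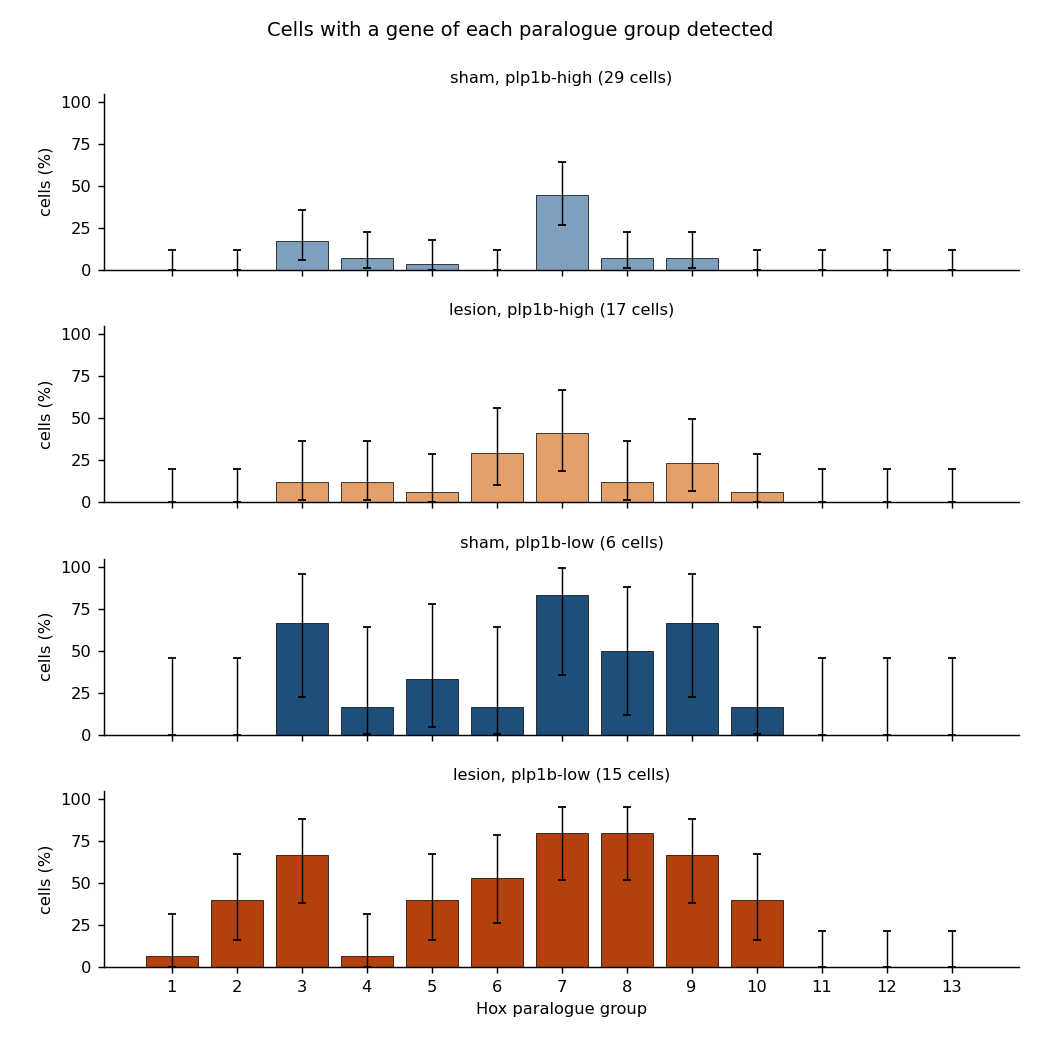
Share of cells (%) in each class with at least 1 gene of each paralogue group detected; bars start at 0 and error bars are exact 95% intervals for counting error. Group 7 is present in 41.2% to 83.3% of cells in every class, groups 1 and 2 appear in lesion plp1b-low cells, and groups 11 to 13 have no bar.

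Genes of groups 1 and 2 act in the hindbrain of the embryo, where they pattern its segments. Both were detected in lesion plp1b-low cells and in no other class. Under the limit of 5 reads, plp1b-high cells held 4 reads of hoxb2a, in sham cell 24, and 1 read of hoxa2b, in lesion cell 32. Of group 1, hoxb1b was detected in lesion cell 6 with 117 reads (251 CPM). Of group 2, hoxb2a was detected in lesion cell 4 with 24 reads, and hoxa2b was detected in 5 of the 15 lesion plp1b-low cells. The hoxa2b values in these 5 cells were 15.3, 37.9, 93.5, 104 and 144 CPM, in lesion cells 12, 3, 8, 14 and 13. The value in lesion cell 12 rests on 7 reads. Each of the 5 cells had FOXJ1, a regulator of motile cilia, or the motor neuron factors ISL1 and MNX1. These marks overlapped, since lesion cell 3 had all of them, with FOXJ1 at 431.5 CPM. Lesion cell 15 also had all of them, with FOXJ1 at 1169 CPM, but no read of hoxa2b. In the sham plp1b-low class hoxa2b had no read in 6 cells, where the interval allows a share of up to 45.9%.

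Group 3 genes are expressed from the caudal hindbrain into the cord. They were detected in 4 of 6 sham and 10 of 15 lesion plp1b-low cells, and in 5 of 29 sham and 2 of 17 lesion plp1b-high cells. The gene hoxd3a was detected in 4 sham plp1b-low cells, at 16.2, 88.4, 216 and 287 CPM, and in 3 lesion plp1b-low cells, at 86.4, 284 and 439 CPM. No plp1b-high cell reached 5 reads of hoxd3a. By contrast hoxc3a was found on both sides. It was detected in 7 lesion plp1b-low cells at 20.0 to 316 CPM with a median of 117, and in 1 sham plp1b-low cell at 295 CPM. Among plp1b-high cells it was detected in 3 sham cells at 77.1, 378 and 427 CPM and in 1 lesion cell at 18.4 CPM. The gene hoxa3a was detected in 4 lesion plp1b-low cells at 13.1 to 374 CPM, in 1 sham plp1b-low cell at 112 CPM and in 1 lesion plp1b-high cell at 69.9 CPM. The gene hoxb3a was detected in 3 lesion plp1b-low cells at 24, 134 and 284 CPM, in 1 lesion plp1b-high cell at 39.2 CPM and in 2 sham plp1b-high cells at 15.6 and 164 CPM.

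The gene models of this group are long. In the counted annotation hoxc3a spans hoxc4a, hoxc5a, hoxc6a, hoxc8a and hoxc9a, hoxb3a spans hoxb4a, hoxb5a and hoxb6a, hoxa3a spans hoxa5a, and hoxd3a spans hoxd4a. The model of hoxa3a shares 269 exon bases with hoxa5a and that of hoxd3a shares 94 with hoxd4a, so reads there were not assigned to either gene. A gene without a symbol, on the same strand, shares 498 exon bases with hoxa3a and hoxa9a, so reads there were not assigned either. Reads counted for hoxc3a, hoxb3a, hoxa3a and hoxd3a may come from a transcript that also covers the neighbours, which these counts cannot separate. Counting also ignored strand. Antisense genes that share exon bases with a detected Hox gene had at most 282 reads, for si:dkey-81p22.14, which shares 109 exon bases with hoxc9a. TAX1BP1, on the opposite strand in the hoxab region, had 8479 reads in all and shares no exon base with a Hox gene.

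Groups 4 and 5 were sparse. The gene hoxb4a was detected in 1 sham and 2 lesion plp1b-high cells, at 177 CPM in the sham cell and 45.6 and 83.6 CPM in the lesion cells. It was detected in no plp1b-low cell, though 1 lesion plp1b-low cell held 1 read. Over the 21 plp1b-low cells the interval allows a share of up to 16.1%. Of hoxc4a, 1 sham plp1b-low cell had 333 CPM, 1 lesion plp1b-low cell 331 CPM and 1 sham plp1b-high cell 10.9 CPM. The gene hoxb5b was detected in 3 lesion plp1b-low cells, at 92.1, 251 and 266 CPM. The gene hoxb5a reached 1449 CPM, with 613 reads, in lesion cell 25, and 182 CPM in 1 lesion plp1b-low cell. Lesion cell 25 alone held the sum of hoxb5a in its class, and it also had 523 reads of foxg1b, a forebrain transcription factor. The remaining members, hoxc5a and hoxa5a, were detected in 4 and 2 cells.

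In group 6, hoxb6a was detected in 4 of 17 lesion plp1b-high cells and 5 of 15 lesion plp1b-low cells, and in no sham cell. Its CPM was 49.8, 66.1, 102 and 274 in the former, and 44.4, 60.8, 67.2, 120 and 122 in the latter. Among sham cells, hoxb6a had 4 reads in the plp1b-high and 1 read in the plp1b-low class. Its intervals overlap those of sham: 0 of 29 sham plp1b-high cells allows up to 11.9%, and 0 of 6 sham plp1b-low cells up to 45.9%. The gene hoxc6a was detected in 4 cells, 1 sham plp1b-low, 1 lesion plp1b-high and 2 lesion plp1b-low, at 65.2 to 345 CPM. The gene hoxb6b was detected in lesion cell 16 alone, with 390 reads (763 CPM).

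Group 7 is represented in the table by hoxb7a, a trunk gene, and it was the most widely detected Hox gene. It was detected in 37 of 67 cells: 13 of 29 sham plp1b-high, 7 of 17 lesion plp1b-high, 5 of 6 sham plp1b-low and 12 of 15 lesion plp1b-low cells. In the cells where it was detected it ran from 36.7 to 427 CPM with a median of 243 in sham plp1b-high cells, and from 109 to 588 with a median of 191 in lesion plp1b-high cells. In sham plp1b-low cells the 5 values were 191, 287, 435, 483 and 563 CPM, and in lesion plp1b-low cells they ran from 24 to 1111 with a median of 180. Among cells that had it, the levels of hoxb7a overlapped across all 4 classes. Over whole classes hoxb7a was at 127 CPM in sham plp1b-high (122 to 133), 98.4 in lesion plp1b-high (91.4 to 106), 357 in sham plp1b-low (335 to 381) and 241 in lesion plp1b-low cells (228 to 253).

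In group 8, hoxb8a, whose mouse counterpart is expressed through most of the cord, was found mainly in plp1b-low cells. It was detected in 3 of 6 sham plp1b-low cells, at 12.2, 363 and 781 CPM, and in 10 of 15 lesion plp1b-low cells, at 109 to 4304 CPM with a median of 618. Of the 17 lesion plp1b-high cells 2 had it, at 15.2 and 446 CPM, and none of the 29 sham plp1b-high cells did. The class values of hoxb8a were 0.12 CPM in sham plp1b-high, 26.4 in lesion plp1b-high, 195 in sham plp1b-low and 898 in lesion plp1b-low cells. The gene hoxc8a, which in mouse acts in brachial motor neurons, was detected in 4 lesion plp1b-low cells at 193, 265, 410 and 724 CPM, in 1 sham plp1b-low cell at 109 CPM and in 2 sham plp1b-high cells at 143 and 204 CPM. The gene hoxb8b was detected in 3 cells, at 270 CPM in 1 sham and at 14 and 32.3 CPM in 2 lesion plp1b-low cells.

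Group 9 genes mark thoracic levels in mouse and chick. Of these, hoxc9a was detected in 4 of 6 sham plp1b-low cells, at 10.1, 72.6, 166 and 363 CPM, and in 10 of 15 lesion plp1b-low cells, at 67.8 to 763 CPM with a median of 285. No plp1b-high cell reached 5 reads of hoxc9a, and over 46 such cells the interval allows up to 7.71%. The gene hoxa9b crossed this division: it was detected in 2 sham and 4 lesion plp1b-high cells, at 324 and 445 CPM in sham and at 91.4, 94.0, 251 and 285 CPM in lesion cells. It was also detected in 2 sham plp1b-low cells, at 18.3 and 316 CPM, and in 6 lesion plp1b-low cells, at 32.7 to 867 CPM with a median of 574. The gene hoxb9a was detected in 4 lesion plp1b-low cells at 48.0, 255, 305 and 852 CPM and in 1 sham plp1b-low cell at 123 CPM. The gene hoxa9a was detected in lesion cell 15 alone, with 77 reads.

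The most posterior detected gene was hoxb10a, a fish gene with no counterpart left in mouse. It was detected in 6 of 15 lesion plp1b-low cells, at 21.8, 161, 199, 226, 331 and 430 CPM, and in 1 of 6 sham plp1b-low cells, at 221 CPM. In plp1b-high cells the gene had 5 reads (15.2 CPM) in lesion cell 32 and none elsewhere. That cell also held hoxb8a at 5 reads and traces of several other members, so group 10 in lesion plp1b-high cells rests on 5 reads.

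Per kilobase of counted length, genes can be compared only if reads cover whole transcripts, and the sources used do not name the library kit. By this measure hoxb8a led the lesion plp1b-low class at 494 CPM per kb. It was followed by hoxc9a at 196, hoxb7a at 153, hoxa9b at 143 and hoxc8a at 104 CPM per kb. Without the 3 cells that had ISL1 and MNX1, described below, hoxb7a led at 162, followed by hoxb8a at 127 and hoxc9a at 123 CPM per kb. In sham plp1b-low cells the order was hoxb7a at 227, hoxb8a at 107, hoxc9a at 85.0 and hoxc5a at 53.6 CPM per kb. Both plp1b-high classes were led by hoxb7a, at 81.0 in sham and 62.6 in lesion cells. In sham plp1b-high cells hoxa9b followed at 20.9 CPM per kb, and in lesion plp1b-high cells hoxb5a followed at 45.5, all of it from lesion cell 25. With cells of 1 pool there is no replicate spread by which neighbours in these orders could be called different.

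The 4 genes hoxb7a, hoxb8a, hoxc9a and hoxa9b together took 67.8% of Hox reads in sham plp1b-high, 51.6% in lesion plp1b-high, 65.1% in sham plp1b-low and 68.8% in lesion plp1b-low cells. Of the 21 plp1b-low cells, 17 had hoxb7a, 14 had hoxc9a and 13 had hoxb8a. Every one of the 14 cells with hoxc9a and of the 13 with hoxb8a also had hoxb7a, and 12 cells had hoxb8a and hoxc9a. These 3 genes were detected together in 3 of 6 sham and 9 of 15 lesion plp1b-low cells and in no plp1b-high cell. In sham cell 32, 1 of these cells, hoxb8a had 6 reads and hoxc9a 5, near the limit. Sham cell 33, next to it on the plate, held 336 and 156 reads of them. Whether reads passed between wells was not tested. The 7 plp1b-low cells with hoxb10a all had hoxb7a and hoxc9a, and the 7 with hoxd3a likewise had hoxb7a and hoxc9a. Cells with more detected genes overlap more for any pair, and no test was made.

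**Figure D4:**
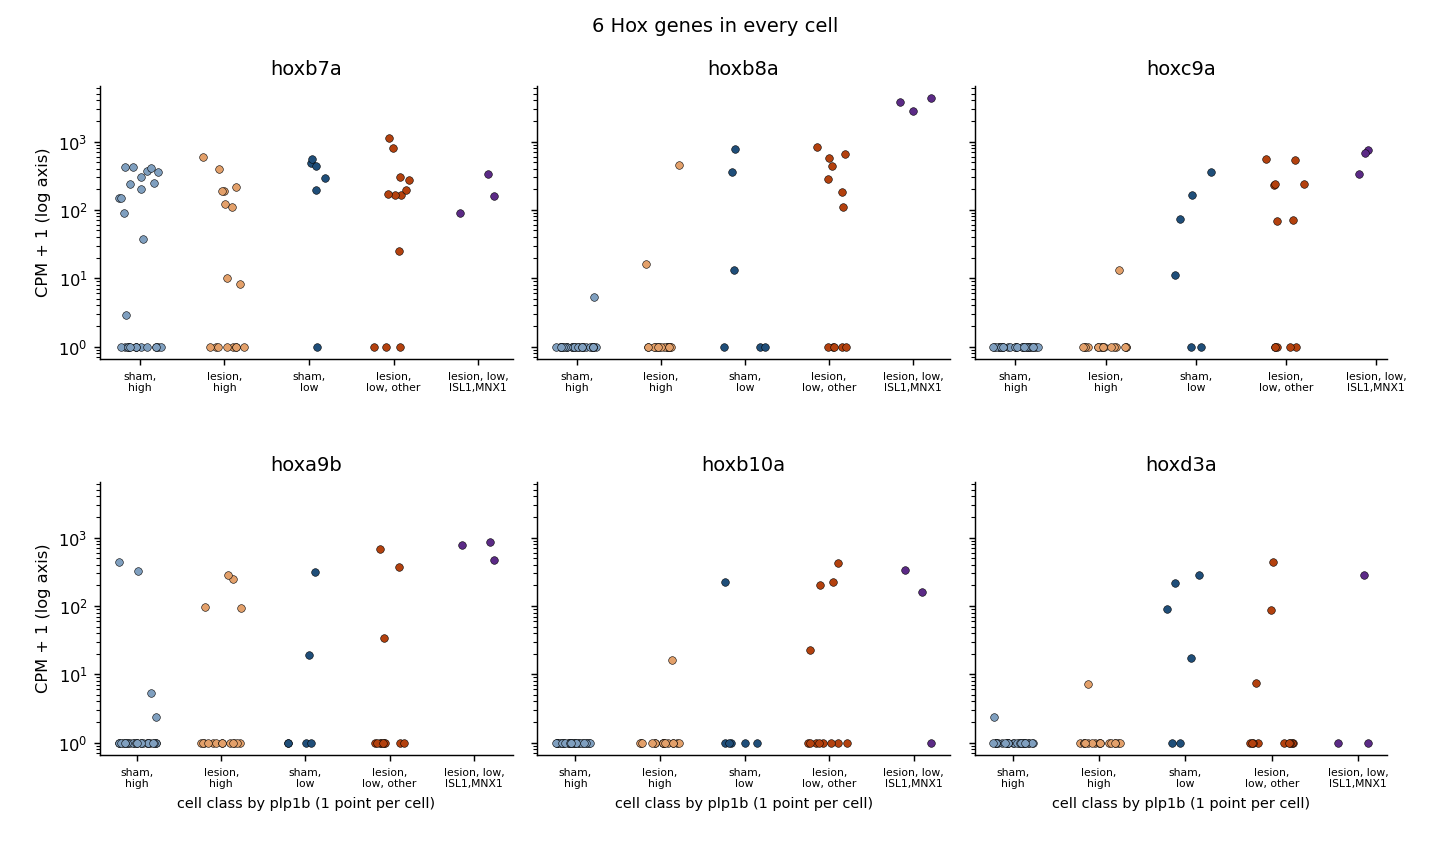
CPM + 1 (log axis) of 6 Hox genes in every cell, 1 point per cell, by group and plp1b class, with lesion plp1b-low cells that have ISL1 and MNX1 in a column of their own. Cells at 1 have no read. The 3 cells with ISL1 and MNX1 lie at 2761 to 4304 CPM of hoxb8a, above every other cell.

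Between plp1b-low and plp1b-high cells of the sham group, the summed Hox level was 1088 CPM (1049 to 1129) against 234 CPM (227 to 242), a log2 ratio of 2.21 with 1 CPM added to both sides. With TMM factors it was 1.14 and with DESeq2 size factors 1.61, while within the plate it was 1.599 for rows B to E and 3.28 for rows F to H. A gene was compared where it reached 1 CPM in either class, which held for 17 of the 47 members, and a difference of at least 2-fold was counted as higher or lower. Of these 17, 12 were higher in plp1b-low cells, where 37.8% of all 11044 genes compared were higher, and 2 were lower, where 44.6% of all genes were. The median log2 ratio was 3.37 over the 17 members and -0.26 over all genes. Most of the 12 higher members had under 1 CPM in plp1b-high cells, so they passed the limit through plp1b-low cells alone. Most of the 12 were detected in only 1 plp1b-low cell. These counts and medians describe the classes and are not a test. The largest ratios belonged to hoxb8a (7.45), hoxc9a (6.65) and hoxd3a (6.39). With 3 reads put in place of none in the plp1b-high class, the class value of hoxc9a was 536-fold higher. This is no lower bound, since 60.9% of its 256 reads in sham plp1b-low cells came from 1 cell. The smallest ratios, for hoxb4a (-3.21) and hoxb3a (-2.48), rested on 1 and 2 plp1b-high cells, and hoxc8a (0.31), hoxc3a (0.70) and hoxa9b (0.83) differed by less than 2-fold.

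In the lesion group the same division gave 2298 CPM (2260 to 2336) in plp1b-low against 313 CPM (301 to 326) in plp1b-high cells, a log2 ratio of 2.87, or 2.01 without the 3 cells that had ISL1 and MNX1. Of 25 members compared, 21 were higher in plp1b-low cells, where 47.7% of 13162 genes were, and 2 were lower, where 27.3% of all genes were. The median log2 ratio was 3.76 over the members and 0.85 over all genes. Most of the 21 higher members had under 1 CPM in lesion plp1b-high cells, so they too passed the limit through plp1b-low cells alone. The largest ratios were those of hoxc9a (7.23), hoxc8a (6.78) and hoxb9a (6.5). Of their reads in lesion plp1b-low cells, 50.2%, 30.0% and 96.5% came from the 3 cells with ISL1 and MNX1. The lower members were hoxb4a (-3.11) and hoxb5a (-2.57), and hoxb6a (-0.15) and hoxc6a (-0.12) were nearly level.

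Some markers of other cell types also differed along this division. The summed neuron list was 1511 CPM in sham and 1734 CPM in lesion plp1b-low cells, against 398 and 425 CPM in plp1b-high cells. Of that list 6 of 9 genes compared were higher and 2 lower in sham plp1b-low cells, and 6 and 1 of 8 in the lesion group. Of all genes compared, 37.8% were higher and 44.6% lower in the sham group, and 47.7% and 27.3% in the lesion group. The ependymo-radial glia list was split, with 4 of 8 higher and 4 lower in the sham group and 7 and 3 of 11 in the lesion group. Of its most abundant genes, FABP7 (ENSDARG00000007697), a fatty acid binding protein of radial glia, was at 4960 and 5032 CPM in sham and lesion plp1b-low cells against 72.0 and 62.0 CPM in plp1b-high cells. Both genes named GLUL, glutamine synthetase, went the other way, at 1490 and 497 CPM in sham plp1b-low against 4240 and 3115 CPM in sham plp1b-high cells. The part of these lists in the Hox result was not tested. In the summed levels of a class, a larger share of Hox-positive cells and a higher level per cell both count.

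Between lesion and sham plp1b-low cells, the summed Hox level was 2298 against 1088 CPM, a log2 ratio of 1.08. Of 24 members compared, 17 were higher in lesion cells, where 52.8% of all 12530 genes were, and 3 were lower, where 25.5% of all genes were. The median log2 ratio of the members was 1.97 against 1.2 over all genes, so the genes of this class as a whole lay on the same side. The sums cover 15 lesion and 6 sham cells, and the part of this unequal number in the ratios was not tested. With 3 reads put in place of none for genes that had no read in 1 class, the members' median was 1.82. Many of the 17 higher members had under 1 CPM in sham plp1b-low cells and so passed the limit through lesion cells alone. The largest ratios among members detected in at least 3 cells were those of hoxb5b (5.26) and hoxa2b (4.60), both without a read in sham plp1b-low cells. With 3 reads put in place of none they were 32-fold and 20.0-fold higher, which are not lower bounds. Next came hoxb3a (4.56) and hoxb6a (4.29), and hoxb8a (2.2), hoxb9a (2.04), hoxa9b (1.90), hoxb10a (1.6) and hoxc9a (1.2) were smaller. The lower members were hoxb8b (-3.47), hoxc5a (-3.00) and hoxa5a (-2.38), each detected in 1 sham cell. The ratios of hoxb7a (-0.57), hoxd3a (-0.75) and hoxc3a (0.30) lay within 2-fold.

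The difference in the summed level rested largely on 3 cells. Lesion cells 3, 8 and 15, which had ISL1 and MNX1, transcription factors of motor neurons, and SLC18A3, the vesicular acetylcholine transporter, had the highest summed Hox levels of all 67 cells, at 5370, 8288 and 6010 CPM. They had 10, 12 and 8 Hox genes. Together they held 56.4% of the Hox reads of the 15 lesion plp1b-low cells, among them 79.7% of the hoxb8a, 96.5% of the hoxb9a, 69.3% of the hoxa9b and 50.2% of the hoxc9a reads. Over these 3 cells the Hox genes summed to 6268 CPM, against 1263 CPM over the other 12 lesion plp1b-low cells. Without the 3 cells the log2 ratio of summed Hox CPM, lesion over sham plp1b-low cells, was 0.21 in place of 1.08, and that of hoxb9a was -2.16 in place of 2.04. Some members stayed above sham over the remaining 12 cells: hoxb5b was at 36.6, hoxa2b at 19.3, hoxb6a at 25.7 and hoxc8a at 109 CPM. In sham plp1b-low cells these 4 were at 0, 0, 0.39 and 18.7 CPM. They were detected in 2, 3, 4 and 3 of the 12 cells. Others lay under sham: hoxd3a at 48.3, hoxc3a at 36.6, hoxc4a at 25.5, hoxc5a at 6.98, hoxb8b at 4.11 and hoxa5a at 3.49 CPM. In sham plp1b-low cells these were at 88.2, 50.5, 39.2, 51.3, 46.2 and 18.7 CPM, and all but hoxd3a were detected in 1 sham plp1b-low cell. The members hoxb8a, hoxa9b and hoxc9a lay within 2-fold of sham, at 230, 82.6 and 144 CPM against 195, 56.3 and 99.4 CPM. The gene hoxb7a was at 255 CPM, under its sham value of 357 CPM. No sham cell had a read of ISL1. Of the motor neuron list, 7 of 8 genes were detected, its summed level ran from 0 to 3139 CPM in lesion plp1b-low cells, and it did not pass 3.02 CPM in sham plp1b-low cells.

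In those 3 cells hoxb8a stood at 2761, 4304 and 3787 CPM, while the highest of the other 12 lesion plp1b-low cells was 819 CPM and the highest sham cell 781 CPM. These groups of cells did not overlap. The gene hoxb9a was at 305, 852 and 255 CPM in the 3 cells and at most 48.0 CPM in the other 12. By contrast hoxb7a was at 90.3, 160 and 332 CPM in the 3 cells, inside the range of the other 12, which reached 1111 CPM. The hoxc9a values of 330, 688 and 763 CPM overlapped those of the other 12, which reached 563 CPM.

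Among the remaining plp1b-low cells, 3 lesion cells had FOXJ1 without ISL1 and MNX1, and had 8, 10 and 12 Hox genes at 334, 2925 and 3050 CPM. All 3 had hoxa2b, hoxa3a, hoxb7a, hoxb8a, hoxb10a and hoxc9a. In lesion cell 12, which had 5140 genes with a read, these had only 7, 6, 11, 50, 10 and 32 reads. All 8 Hox genes of lesion cell 12 were also detected in lesion cell 13, in the same plate column. Whether reads passed between wells was not tested. The 5 sham cells with olig1, an oligodendrocyte lineage factor, had 1 to 8 Hox genes with a median of 6 and a median of 1376 CPM. The 6 lesion cells with olig1 had 0 to 9 with a median of 2.5 and a median of 1024 CPM, so their ranges overlapped. The 2 plp1b-low cells without a Hox gene, lesion cells 5 and 10, were both among these, with 503794 and 407985 reads. GPR17, a receptor of committed progenitors, marked 3 cells with 1, 4 and 7 Hox genes at 287, 857 and 916 CPM.

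Between lesion and sham plp1b-high cells the summed Hox levels were close. They were 313 and 234 CPM, a log2 ratio of 0.42. Of 12 members compared, 5 were higher in lesion cells, where 31.9% of all 10814 genes were, and 3 were lower, where 31.6% of all genes were. The median log2 ratio was 0.17 over the members and 0.01 over all genes. Without lesion cell 25, the cell with hoxb5a, the log2 ratio of the sums was -0.03. Within plate rows B to E it was -0.36 and within rows F to H 1.51, so the direction depended on which cells were summed. The members higher in lesion cells were hoxb5a (6.28), hoxb8a (4.61), hoxb6a (4.60), hoxc6a (4.43) and hoxa3a (2.35). Of these, hoxb6a was the single member detected in at least 3 cells, and within rows B to E its ratio was -0.12. The lower members were hoxc3a (-4.14), hoxc5a (-4.05) and hoxc8a (-3.81), detected in 3, 1 and 2 sham cells. All 5 higher members had under 1 CPM in sham cells, and all 3 lower members had under 1 CPM in lesion cells. The gene hoxb7a had a ratio of -0.37 and hoxa9b of 0.21. The microglia and macrophage list was 8667 CPM in lesion and 558 CPM in sham plp1b-high cells, nearly all of it apoeb, while ptprc had 2 reads in all cells. Its part in the Hox values was not tested.

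**Figure D5:**
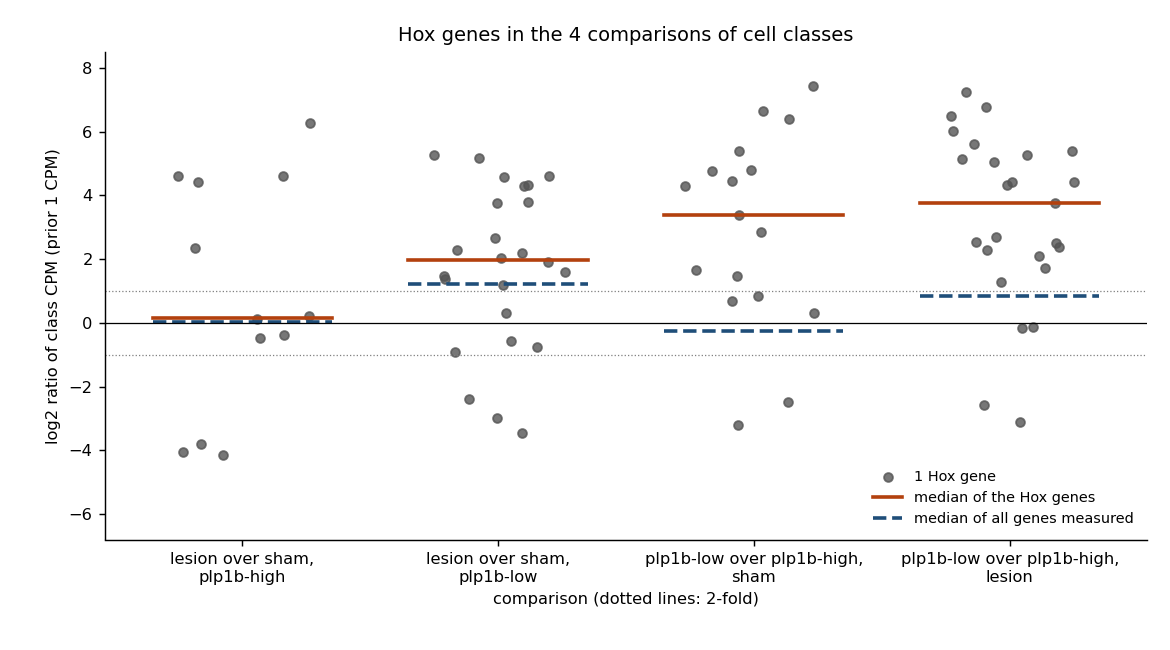
Each point is the log2 ratio of 1 Hox gene in 1 of 4 comparisons of cell classes, with the median of the Hox genes as a solid line, the median of all genes compared as a dashed line and 2-fold as dotted lines. Between plp1b-low and plp1b-high cells the Hox median lies at 3.37 in sham and 3.76 in lesion cells, above the median of all genes.

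Hox proteins bind DNA together with PBX and MEIS family homeodomain proteins, and 12 of 14 such genes were detected. In the sham group 6 of 9 compared were higher and 3 lower in plp1b-low cells, where 37.8% of all genes were higher and 44.6% lower. In the lesion group 8 of 12 were higher and none lower, where 47.7% of all genes were higher and 27.3% lower. The cofactor pbx4 was at 75.0 and 112 CPM in sham and lesion plp1b-low cells, against 1.61 and 34.7 CPM in plp1b-high cells. PKNOX1 (ENSDARG00000018765) and pbx2 had no read in sham plp1b-low cells and were at 43.6 and 45.8 CPM in sham plp1b-high cells, the other way round. Between lesion and sham plp1b-low cells 8 of 12 cofactors were higher and 1 lower, where 52.8% of all genes were higher and 25.5% lower.

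The chromatin regulators of Hox genes were mixed. Over all genes, 37.8% were higher and 44.6% lower in sham plp1b-low cells, and 47.7% and 27.3% in lesion plp1b-low cells. Of the Trithorax list, which keeps Hox genes active, 7 of 15 were higher and 7 lower in sham plp1b-low than plp1b-high cells, and 9 and 2 of 15 in the lesion group. Its most abundant genes were kmt2a, DPY30 and WDR5. Of the Polycomb list, which keeps them silent, 10 of 21 were higher and 10 lower in the sham group, and 9 and 7 of 21 in the lesion group, led by cbx7a, ezh1 and CBX8. Ezh1 was at 289 and 53.0 CPM in sham and lesion plp1b-high cells against 0.39 and 1.30 CPM in plp1b-low cells. The summed Polycomb list went the other way, at 1421 and 829 CPM in sham and lesion plp1b-high cells against 2502 and 1016 CPM in plp1b-low cells. Of the retinoic acid list, a signal that sets Hox limits in the embryo, 8 of 13 were higher and 4 lower in the sham group and 9 and 5 of 15 in the lesion group, with DHRS3 and RDH10 among the most abundant.

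Of factors of other positions along the axis, those of forebrain and midbrain were detected in few cells. Of 32 forebrain and midbrain factors 3 were detected, foxg1b in 2 lesion plp1b-high cells, tbr1a in 2 lesion plp1b-low cells and DMBX1 in 1 sham plp1b-high cell, and 17 had no read. Both cells with foxg1b, lesion cells 22 and 25, had 2 Hox genes. Of 11 hindbrain segment factors 4 were detected, in 2 of 6 sham and 6 of 15 lesion plp1b-low cells and in no plp1b-high cell. Among them, meis3 was at 129 and 44.8 CPM and EGR2 at 33.8 and 6.19 CPM in sham and lesion plp1b-low cells. These are not markers of position alone, since meis3 is also on the cofactor list and EGR2 on a list of Schwann cell markers. Of the 9 genes of the Cdx and posterior patterning list, GMNN, mstnb and gdf11 were detected, in 2 cells each, and cdx4 had no read.

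The labelled cell type was checked against markers. OLIG2 was detected in 67 of 67 cells and SOX10 in 52, while PDGFRA was detected in none. Of the progenitor list 9 of 11 genes were detected, and it summed to 10490 CPM in both plp1b-high classes and to 6695 and 6913 CPM in sham and lesion plp1b-low cells, most of it OLIG2. The myelinating oligodendrocyte list summed to 54390 to 185200 CPM in plp1b-high cells and to at most 3358 CPM in plp1b-low cells, so the plp1b-high cells carry myelin genes rather than progenitor markers alone. The endothelium and pericyte list and the fibroblast and muscle list stayed at most 92.9 and 58.5 CPM in any class. Of the defining markers of these lists, cdh5 was detected in no cell, FLI1 in 1 and DCN in 4. The most abundant gene of the former list, NOTCH3, was detected in 6 of 15 lesion plp1b-low cells, at 74.0 CPM over the class, and in no other class. ACTA1 (ENSDARG00000036371), a muscle actin, was detected in 15 cells.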

How the data were processed

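The data are RNA reads of 67 sorted cells. Per the file headers and the submitters' processing notes, the authors aligned reads to GRCz10 with GSNAP 2018-05-30 and deposited raw counts per Ensembl release 87 gene, made with featureCounts (1.6.2 in the notes, 1.6.3 in the header) without strand (-s 0) and with mapping quality at least 1. The table holds 1 column per cell with no normalization. Spike-ins, with 0.000219% of reads, were left out of totals. Symbols came from a gene name table that matched 26433 IDs, and zebrafish a or b names came from RefSeq (GRCz12tu, names only). 1 further Hox ID of the name table is not in the counted table.

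Counts were summed per class and scaled to CPM with Python 3.11.15, pandas 2.3.3 and scipy 1.17.1. Log2 ratios had 1 CPM added. The summation was tested on simulated data. Alternatives covered detection limits, thinning, scaling with edgeR 4.0.16 TMM factors or DESeq2 1.42.0 size factors (R 4.3.3), plp1b limits of 5000 and 20000 CPM, plate rows, and leaving out cells. With 67 cells, doublets were not called, and 3 cells with over 5000 genes were left out as an alternative. The highest Pearson correlation of log2 CPM between any pair of cells was 0.838, so no column was a copy of another.

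Members and gene lists were chosen with earlier results of these data known. Hox genes are named with values in each class where detected in at least 20% of a class, highest in paralogue number, or among the 2 highest or lowest ratios detected in at least 3 cells. Others are given by count, range or single value, and some were named after their values were seen. Of each other list the 3 most abundant genes are named, with others that were chosen after their values were seen; some results of these lists are not reported here.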

Additional observations from a re-analysis of the deposited data

Results flagged for a closer look

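The gene hoxc8a moved in opposite directions between lesion and sham cells of the plp1b-high and plp1b-low classes. Its log2 ratio of class CPM, lesion over sham, was -3.81 in plp1b-high cells and 2.66 in plp1b-low cells. The plp1b-high value rests on 2 of the 29 sham cells, at 143 and 204 CPM, against no detection in the 17 lesion cells, which held 1 read in all (0.133 CPM, exact Poisson interval 0.00336 to 0.74, counting error only). The plp1b-low value rests on 1 of the 6 sham cells, at 109 CPM, against 4 of the 15 lesion cells, at 193, 265, 410 and 724 CPM. With 1 pool per group the difference between the classes was not tested, and each side rests on few cells.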

How the results depend on the processing

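In the order lesion over sham plp1b-high, lesion over sham plp1b-low, plp1b-low over plp1b-high in sham and the same in lesion cells, the log2 ratios of summed Hox CPM were 0.42, 1.08, 2.21 and 2.87. Under TMM factors they were 0.25, 1.52, 1.14 and 2.405, while the median of all genes shifted by -0.16, 0.17, -0.98 and -0.42. DESeq2 size factors gave 1.17, 1.61 and 2.43 for the last 3, with shifts of the median of -0.56 and -0.4 for the last pair. For lesion over sham plp1b-low cells, the all-gene median was 1.2, and 1.38 under TMM factors. The Hox ratios of 1.08 and 1.52 are ratios of sums, which are not the same measure as a median of single-gene ratios. The median over single Hox genes, the like measure, was 1.97 without TMM factors. Within plate rows B to E the ratios were -0.36, 0.84, 1.599 and 2.79, and within rows F to H 1.51, 1.47, 3.28 and 3.24. Without the highest cell of each class they were 0.11, 1.21, 2.01 and 3.12. The cause was not tested.

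With each cell weighted alike the first and the sham ratio were 0.64 and 2.38. A plp1b limit of 20000 CPM gave 0.51, 0.97 and 2.67 for all but the sham ratio. Leaving out cells with over 5000 genes gave 1.17 for lesion over sham plp1b-low cells. Leaving out each cell in turn gave ranges of -0.034 (without lesion cell 25) to 0.57, 0.75 to 1.42, 1.87 to 2.54 and 2.66 to 3.32. Alternatives chosen after seeing the data were leaving out the 4 long gene models, with 0.61, 1.18 and 2.80 for all but the sham ratio, and leaving out the 3 cells with ISL1 and MNX1, with 0.21 and 2.01 for the ratios that use lesion plp1b-low cells.

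At 1 or more reads, a Hox gene was found in 82.8% of sham plp1b-high and 100% of lesion plp1b-low cells. At that limit sham plp1b-high cells had 9 paralogue groups in place of 6. Of single genes, hoxa3a turned to -0.24 (lesion over sham plp1b-low, rows B to E) and -0.48 (sham plp1b-low over plp1b-high, rows F to H), hoxb6a to -0.12 (lesion over sham plp1b-high, rows B to E) and hoxb9a to -2.16 (lesion over sham plp1b-low, without cells with ISL1 and MNX1). A plp1b limit of 5000 CPM moved no cell. Of the other values of named genes, 567 stayed on the same side of a 2-fold difference and 45 did not. Some of the 567 could not change, because the alternative left both classes of that comparison as they were. Leaving out the cells with ISL1 and MNX1, for example, alters the lesion plp1b-low class alone. No paired analysis was possible because the labels give the cells no shared replicate numbers. At this depth a gene with few copies per cell may be missed, and 6 sham plp1b-low cells leave wide intervals.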
